A study of Mus musculus with 12 samples.

Results

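The 9 genes described here encode the reelin signaling pathway and the Cdk5 and Lis1 machinery of neuronal migration: Reln, Dab1, Vldlr, Lrp8, Cdk5, Cdk5r1, Cdk5r2, Pafah1b1 and Ndel1. They were chosen by name, and all 9 were found among the 46603 genes that were counted. Libraries came from neocortex of C57Bl/6J mice that were Chd8+/+ or Chd8+/-, at embryonic day 12.5 (E12.5, both hemispheres) and postnatal day 5 (P5, 1 hemisphere). Each genotype at each stage had n = 3 libraries, 12 in all, and the comparisons asked how the genes differ between genotypes within a stage and between stages within a genotype. Chd8+/- mice carry 1 null allele of Chd8, which encodes a chromatin remodeling factor. The allele lacks exon 3 in every tissue, because a ubiquitous β-actin Cre deleted it in the germline, and crosses to C57BL/6J later removed the Cre transgene. Chd8+/+ animals carried neither the null allele nor another stated transgene.

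Reelin is a large glycoprotein that Cajal-Retzius cells secrete into the marginal zone of the embryonic cortex and that a subset of GABAergic interneurons makes after birth. It binds the lipoprotein receptors VLDLR and APOER2, the product of Lrp8, and thereby causes phosphorylation of the adaptor DAB1 by Src family kinases, which directs the layering of newborn neurons. CDK5, a kinase that is active only with its neuronal activators encoded by Cdk5r1 and Cdk5r2, and the dynein regulators LIS1 (Pafah1b1) and NDEL1 act on the same migrating neurons, by coupling the nucleus to microtubule motors.

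Between 38774591 and 54695236 counts were assigned to genes in each library. Levels are given as CPM, the count of a gene relative to library size, with library sizes scaled by TMM over the 12 libraries. Chd8 itself lay at 229 to 235 CPM in Chd8+/+ and 161 to 167 CPM in Chd8+/- at E12.5, and at 145 to 151 and 95.01 to 98.6 CPM at P5, so that the genotype labels were borne out in every library. All 6 projection neuron and all 6 cortical progenitor markers averaged above 1 CPM in every group. Most markers of neighboring tissue did so too, so this level does not tell neocortex from its neighbors. Only 2 striatal markers and 1 choroid plexus marker averaged below 1 CPM, at E12.5. None of the striatal, choroid plexus, meningeal or hippocampal markers was at 0 in a whole group. The library of E12.5 Chd8+/- replicate 2 stood apart from the other E12.5 libraries. Its projection neuron markers summed to 461 CPM against 585 to 728 CPM, and its meningeal markers summed to 1058 CPM against 507 to 779 CPM. The E12.5 estimates of the members are also given without it. At P5, Chd8+/- replicate 3 stood apart over all genes. The chi-squared of its counts per degree of freedom was 49.7 and 43.7 against the other libraries of its group, where it was 7.09 to 18.1 for every other pair of libraries within a group.

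The genes differ widely in size, which bears on the comparison between genotypes. Dab1 (chr4:103619359-104744844, GRCm38) spans 1125.5 kb and Reln (chr5:21884454-22344702) spans 460.2 kb. The receptor genes Lrp8 (chr4:107802261-107876840) and Vldlr (chr19:27216484-27254231) span 74.6 and 37.7 kb. Pafah1b1 (chr11:74673949-74724670) and Ndel1 (chr11:68821434-68871858) span 50.7 and 50.4 kb. Compact genes encode Cdk5 (chr5:24418241-24423530, 5.3 kb) and both activators, Cdk5r1 (chr11:80477023-80481184, 4.2 kb) and Cdk5r2 (chr1:74854934-74857732, 2.8 kb). Reln shares 246 exonic bases, 1.04% of its exons, with Gm10475 on the opposite strand, a gene with 35 counts over all libraries, and no other member shares exonic bases with another gene.

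Promoter windows of 250 bases before to 50 bases after a transcript start were held by the RefSeq table (GRCm38.p6) for 7 of the 9 genes. The sequences of Reln and of Cdk5r2 are shown. In the main fits, Reln had the largest difference between genotypes at P5 and Cdk5r2 the largest between stages. With the offsets for genomic span described below, the P5 difference of Reln was not the largest. The stretches end just before the transcript start of RefSeq (Reln) or Ensembl (Cdk5r2), whichever lies further upstream, and run 5′ to 3′ on the gene's strand. Capitals mark every GGGCGG (GC box) and CCAAT match on either strand, and no matches overlap. The Reln stretch is chr5:22344706-22344955 on the minus strand and the Cdk5r2 stretch is chr1:74854779-74854933 on the plus strand.
Reln: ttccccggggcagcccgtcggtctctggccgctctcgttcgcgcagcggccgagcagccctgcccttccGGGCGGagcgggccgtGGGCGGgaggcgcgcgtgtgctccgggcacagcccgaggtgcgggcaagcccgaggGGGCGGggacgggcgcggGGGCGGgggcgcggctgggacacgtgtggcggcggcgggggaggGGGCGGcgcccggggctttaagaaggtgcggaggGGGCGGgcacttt
Cdk5r2: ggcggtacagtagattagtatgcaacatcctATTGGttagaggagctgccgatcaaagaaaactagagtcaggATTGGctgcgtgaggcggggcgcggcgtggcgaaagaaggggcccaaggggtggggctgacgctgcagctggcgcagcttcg
The Reln stretch holds 6 GC boxes and no CCAAT match. The Cdk5r2 stretch holds 2 CCAAT matches and no GC box, but its whole window, which runs past the Ensembl start, holds 2 GC boxes. Over the whole 300-base windows, Reln has 47 CpG dinucleotides and Cdk5r2 has 33, against a median of 7 over 32851 windows of that length. The 7 genes have 11 windows, of which 5 hold GGGCGG and 3 hold CCAAT, against 35.7% and 37.4% of all windows. These are matches of letters only.

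Compared per kilobase of exon, the level of Cdk5r1 was the highest of the 9 genes at E12.5 in Chd8+/+ neocortex, at 43.7 ± 3.35 CPM per kb (SD, n = 3), followed by Pafah1b1 at 41.7 ± 0.677. These neighbors overlapped between libraries. Levels per kb were then 20.3 ± 1.23 for Cdk5, 16.8 ± 1.08 for Lrp8, 14.1 ± 0.475 for Dab1, 12.8 ± 0.322 for Ndel1 and 7.89 ± 0.712 for Reln, each separated from the next in every library. Vldlr at 3.98 ± 0.280 and Cdk5r2 at 3.41 ± 0.388 CPM per kb came last and overlapped. At P5, Cdk5r2 had moved from the last place to the second. Cdk5r1 stood at 111 ± 3.96 CPM per kb in Chd8+/+, overlapping Cdk5r2 at 102 ± 7.14, and was followed by Pafah1b1 at 70.2 ± 1.25. Below them, Cdk5 lay at 43.4 ± 0.796, Ndel1 at 26.8 ± 0.588, Lrp8 at 21.8 ± 1.32, Dab1 at 19.0 ± 0.925, Reln at 15.1 ± 0.153 and Vldlr at 13.6 ± 0.144 CPM per kb, with no overlap between neighbors. In Chd8+/- libraries at P5 the order differed at its ends, where Cdk5r2 (108 ± 3.78) stood before Cdk5r1 (100.3 ± 3.62) and Vldlr (13.3 ± 0.378) before Reln (13.3 ± 0.485), but each of these pairs overlapped.

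**Figure D1:**
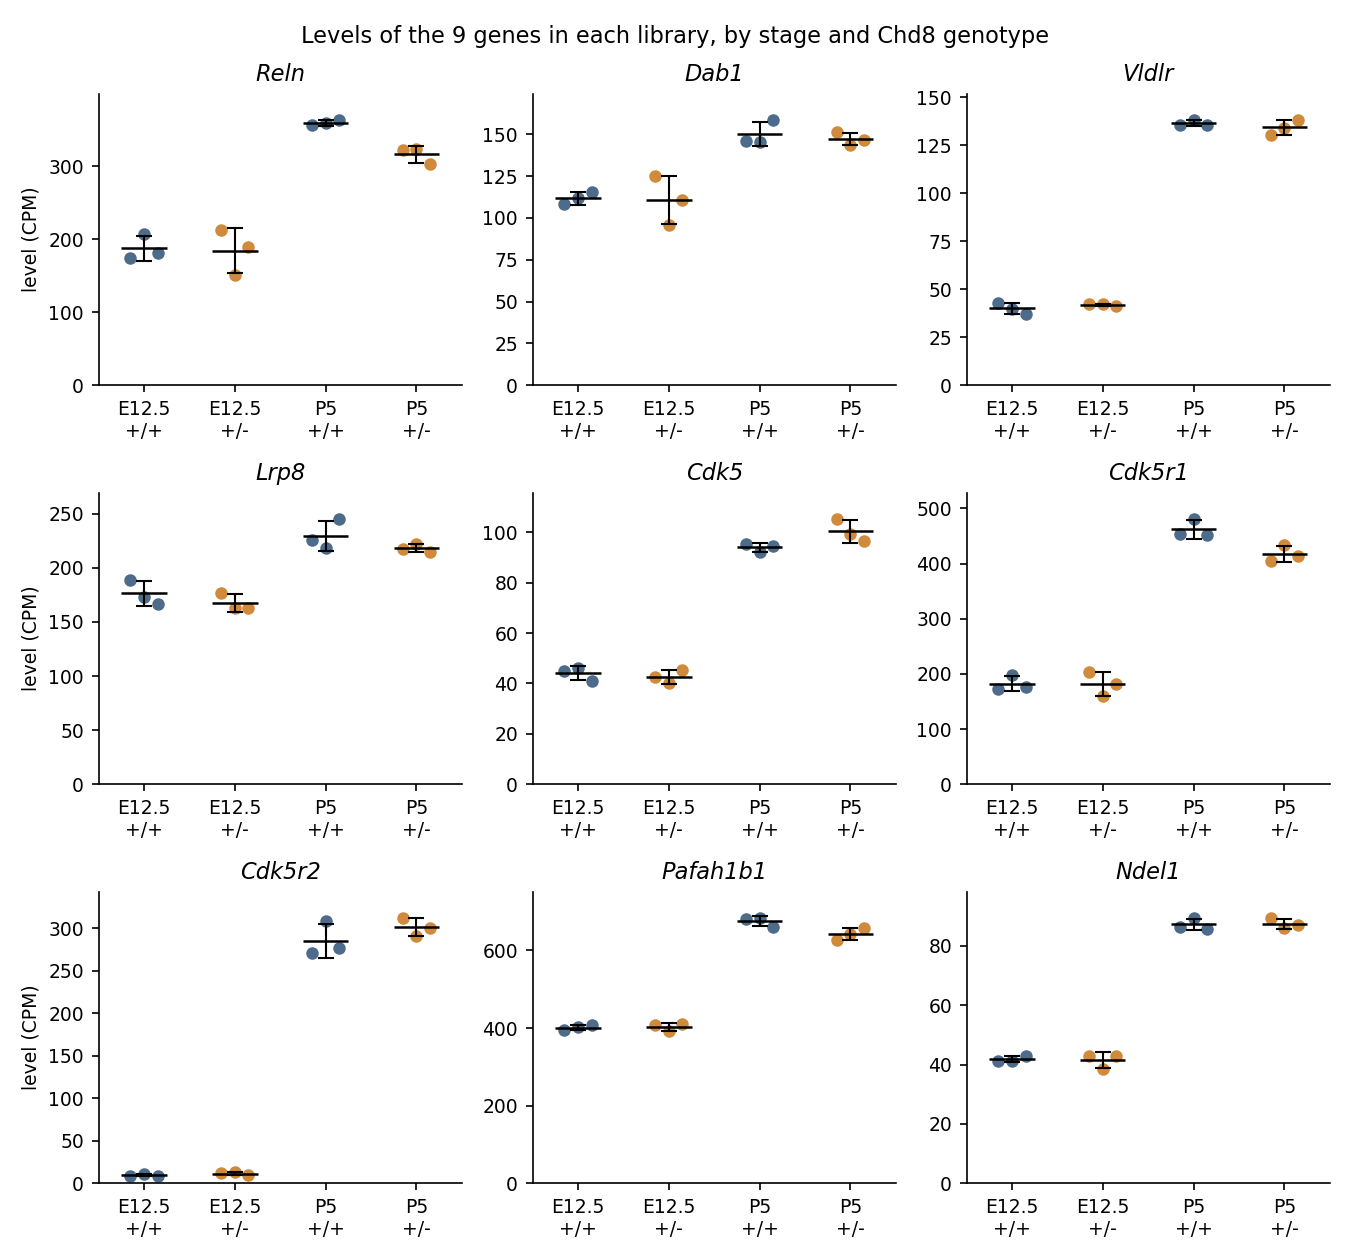
Level in CPM (vertical axes, each from 0) of the 9 genes in every library, by stage and Chd8 genotype, with the mean and SD of 3 libraries. All genes are higher at P5 than at E12.5, and at P5 the genotypes are separated for Reln, Cdk5, Cdk5r1 and Pafah1b1.

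At P5, Reln and the Cdk5 activator gene Cdk5r1 were lower in Chd8+/- neocortex, at 0.890 and 0.915 of their level in Chd8+/+, whereas the fitted ratios of the receptors, Dab1 and Ndel1 lay between 0.961 (Lrp8) and 1.01 (Ndel1). None of the 9 genes passed edgeR's quasi-likelihood test after Benjamini-Hochberg adjustment, where 0.00536% of 18666 genes were called. DESeq2, the tool of the study, called 2 of the 9, Reln and Cdk5r1, against 5.28% of all genes. At an unadjusted edgeR p under 0.05, 2 members were lower and 1 was higher, against 17.8% of all genes in either direction. The genotypes did not overlap for 4 of the 9 genes, against 23.4% of all genes.

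Reln, the ligand, measured 356, 359 and 363 CPM in the Chd8+/+ libraries and 322, 324 and 303 CPM in the Chd8+/- libraries at P5. Every Chd8+/- library was below every Chd8+/+ library, and the Chd8+/+ libraries lay within a narrow band. The log2 fold change was -0.17 (SE 0.0386, 95% CI -0.25 to -0.08), a ratio of 0.890, with an adjusted p of 0.110 in edgeR and of 0.00498 in DESeq2. Offsets that remove each library's trend of level with genomic span reduced it to -0.07, with an adjusted p of 0.557 in edgeR and 0.599 in DESeq2. Offsets for exon length reduced it to -0.09 (edgeR adjusted p = 0.415). Without the filter on low counts, edgeR called Reln (adjusted p = 0.0178). Without Chd8+/- replicate 3 or without Chd8+/+ replicate 1, the DESeq2 adjusted p was 0.0761 and 0.0920. Without Chd8+/- replicate 3, the library that stood apart at P5, the edgeR log2 fold changes were -0.13 for Reln, -0.11 for Cdk5r1, 0.15 for Cdk5 and -0.06 for Pafah1b1. In bulk tissue, fewer cells of a type and less RNA per cell cannot be told apart.

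The receptors and the adaptor showed no such separation. Vldlr, which binds reelin in the marginal zone, measured 136, 138 and 136 CPM in Chd8+/+ and 130, 134 and 138 CPM in Chd8+/- at P5. Lrp8, encoding the second reelin receptor, measured 225, 218 and 245 CPM in Chd8+/+ and 218, 223 and 215 CPM in Chd8+/-. Both ranges overlapped between genotypes. The 95% intervals of the log2 fold change ran from -0.08 to 0.07 for Vldlr and from -0.16 to 0.05 for Lrp8. Dab1, the intracellular adaptor, measured 146, 146 and 159 CPM in Chd8+/+ and 151, 144 and 147 CPM in Chd8+/-, with an interval from -0.11 to 0.09. The edgeR adjusted p of these 3 genes lay between 0.556 and 0.934. The sign of their small differences turned under offsets for exon length, and for Dab1 and Vldlr also under offsets for genomic span. For Dab1 the estimate with span offsets was no longer small, and lay about as far from 0 as that of Cdk5 without offsets.

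Among the Cdk5 genes, Cdk5r1 was lower in Chd8+/- at P5, whereas the estimates for Cdk5 and Cdk5r2 lay above 0 and did not pass. Cdk5r1, encoding an activator that embryonic neurons already make, measured 453, 481 and 451 CPM in Chd8+/+ and 405, 434 and 414 CPM in Chd8+/-. All Chd8+/- libraries were below all Chd8+/+ libraries. The log2 fold change was -0.13 (SE 0.0408, 95% CI -0.22 to -0.04), with an adjusted p of 0.157 in edgeR and 0.0448 in DESeq2. With offsets for genomic span it was -0.19 in DESeq2 (adjusted p = 0.0341) and -0.17 in edgeR (adjusted p = 0.188). DESeq2 called Cdk5r1 in 1 of the 6 fits that left out a library, the one without Chd8+/- replicate 2, and its adjusted p ranged from 0.0106 to 0.247 over them (0.193 without Chd8+/- replicate 3). Cdk5, the kinase, measured 95.4, 92.2 and 94.7 CPM in Chd8+/+ and 105, 99.4 and 96.6 CPM in Chd8+/-. Its libraries did not overlap, but the log2 fold change of 0.11 (SE 0.0396) did not pass (adjusted p = 0.198 in edgeR and 0.186 in DESeq2). Cdk5r2, encoding the second activator, measured 271, 308 and 277.03 CPM in Chd8+/+ and 312, 291 and 299.8 CPM in Chd8+/-, which overlapped (log2 fold change 0.09, 95% CI -0.02 to 0.21).

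Of the dynein regulators, Pafah1b1 (LIS1) measured 681, 684 and 662 CPM in Chd8+/+ and 626, 644 and 659 CPM in Chd8+/- at P5. The libraries did not overlap, although the nearest pair was 662 and 659 CPM. The log2 fold change of -0.06 (95% CI -0.13 to 0.02) did not pass in edgeR (adjusted p = 0.440), and it was 0.01 under offsets for exon length. Ndel1, encoding a LIS1 partner, measured 86.4, 89.4 and 85.8 CPM in Chd8+/+ and 89.3, 86.0 and 87.0 CPM in Chd8+/-. Its ranges overlapped and its interval ran from -0.05 to 0.09.

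**Figure D2:**
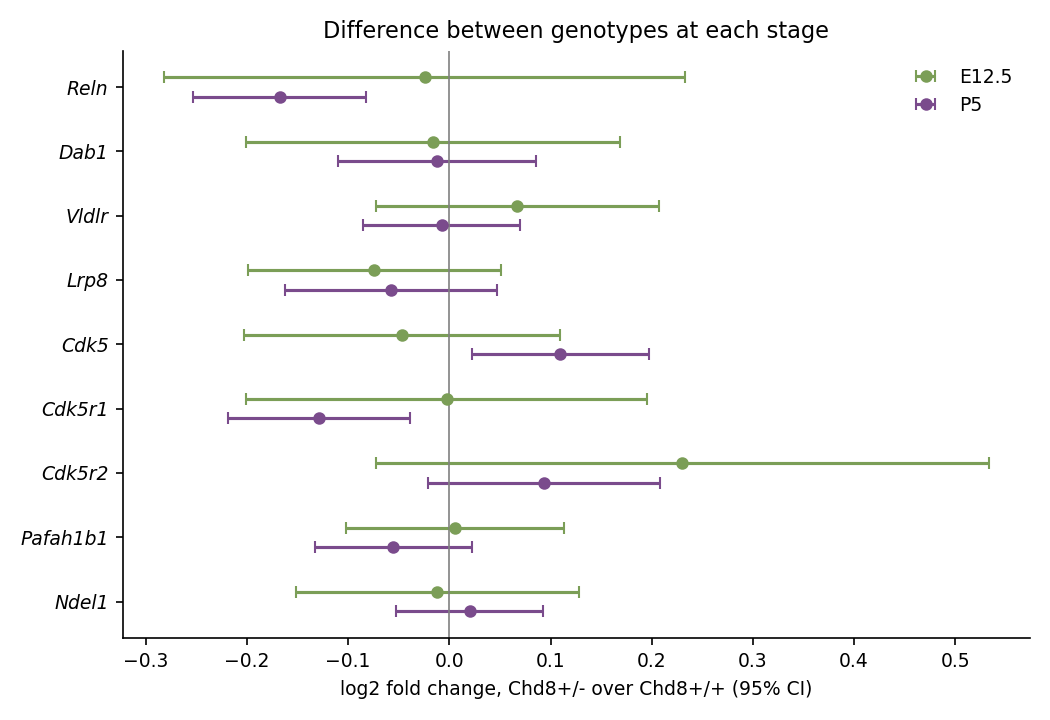
Log2 fold change of each gene, Chd8+/- over Chd8+/+, at E12.5 (green) and P5 (purple), with the 95% confidence interval of the edgeR model before adjustment over genes (n = 3 libraries per group). At P5 the intervals of Reln, Cdk5 and Cdk5r1 lie to 1 side of 0, and at E12.5 every interval includes 0.

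At E12.5 no difference between genotypes was found in the 9 genes. edgeR and DESeq2 called 0 of 9, where they called 0.00553% and 0.0374% of all genes, no member had an unadjusted edgeR p under 0.05 (5.15% of all genes did), and no member had separated genotypes (11.4% did). Reln measured 174, 206 and 181 CPM in Chd8+/+ and 212, 151 and 189.9 CPM in Chd8+/-. The Chd8+/- libraries thus held both the highest and the lowest value, and the lowest was the library that stood apart. The log2 fold change was -0.02 (95% CI -0.28 to 0.23), and without that library it was 0.10 (edgeR adjusted p = 0.893). Dab1 and Cdk5r1 followed the same order, with 125, 96.1 and 111 CPM for Dab1 and 204, 160 and 182 CPM for Cdk5r1 in Chd8+/- replicates 1, 2 and 3. Their Chd8+/+ libraries lay within these ranges, at 108 to 116 CPM for Dab1 and 172 to 198 CPM for Cdk5r1. Without the library that stood apart, their log2 fold changes were 0.08 each.

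The largest E12.5 difference among the 9 was that of Cdk5r2, at 8.96, 10.8 and 8.88 CPM in Chd8+/+ and 11.9, 12.7 and 9.05 CPM in Chd8+/-. The ranges overlapped, and the log2 fold change of 0.23 (SE 0.134) had an unadjusted edgeR p of 0.120 and an adjusted p of 0.944. It was 0.13 without Chd8+/- replicate 2, the library that stood apart, and 0.36 without Chd8+/- replicate 3. The remaining members had log2 fold changes from -0.07 (Lrp8) to 0.07 (Vldlr), and without Chd8+/- replicate 2 from -0.05 (Lrp8) to 0.06 (Vldlr).

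The genotype effect was not shown to differ between the stages for any member. edgeR called 0 of the 9 genes for the interaction of genotype and stage, where it called 0% of 19676 genes and 1972 had an unadjusted p under 0.05. DESeq2 called 0 of the 9 and 8 genes in all. The interaction was -0.16 (SE 0.136) for Reln, -0.14 (SE 0.110) for Cdk5r1 and 0.14 (SE 0.0779) for Cdk5, which had the smallest unadjusted p, 0.0949.

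Other genes of the reelin pathway, 28 in the list, lay mostly below 0 at P5. Of the 28, 8 had a log2 fold change above 0 and 20 below 0, with a median of -0.04 against 0.00 over all genes tested, of which 9254 of 18666 lay below 0. None passed edgeR, 6 had an unadjusted p under 0.05 and all 6 were lower, and DESeq2 called 1. Of all genes, 9.77% were lower at that p, 17.8% passed it in either direction and DESeq2 called 5.28%. The gene called by DESeq2 was Cdh2, encoding N-cadherin, an adhesion molecule of migrating neurons, with a log2 fold change of -0.19 (adjusted p = 0.0973 in edgeR and 0.00136 in DESeq2). With span offsets it was -0.11 in DESeq2 (adjusted p = 0.197), and without Chd8+/+ replicate 1 the DESeq2 adjusted p was 0.0599. Without Chd8+/- replicate 2 Cdh2 passed edgeR (adjusted p = 0.0416), as it did without the filter (adjusted p = 0.00588). The other 5 were the reelin-cleaving protease gene Adamts3 (-0.15) and its relative Adamts4 (-0.29), the Dab1-binding GTPase activator gene Dab2ip (-0.12), the PI3-kinase subunit gene Pik3ca (-0.10) and the integrin subunit gene Itgb1 (-0.12), with edgeR adjusted p between 0.165 and 0.254. At E12.5, 21 of the 28 lay above 0 and 7 below 0, with a median of 0.03 against 0.00 over all genes, of which 9004 of 18081 lay below 0. None of the 28 had an unadjusted p under 0.05 (5.15% of all genes did). The smallest p values belonged to Itgb1 (0.10), Pik3ca (0.07), Rap1a (0.06), Adamts2 (0.26) and Src (0.05), given with their log2 fold changes. Without Chd8+/- replicate 2, that of Adamts2 was 0.09 and that of Itgb1 0.06.

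Of 24 other genes linked to Cdk5 and Lis1, 10 lay above and 14 below 0 at P5, and the median was -0.01 on the log2 scale. None passed edgeR, and 2 were higher and 3 lower at an unadjusted p under 0.05, against 8% and 9.77% of all genes. Of the 24, DESeq2 called only Nudc, against 5.28% of all genes, encoding a partner of LIS1 and dynein, with a log2 fold change of 0.20 (adjusted p = 0.117 in edgeR and 0.0178 in DESeq2). Its DESeq2 adjusted p was 0.104 with span offsets and ranged up to 0.288 when single libraries were left out, the highest without Chd8+/+ replicate 1, and it also missed the threshold without Chd8+/- replicate 1 (0.180) or replicate 3 (0.0631). Without Chd8+/- replicate 2 Nudc passed edgeR (adjusted p = 0.0483), as it did without the filter (adjusted p = 0.00555). The next 5 by p were the Cdk5 substrate gene Cdkn1b (-0.14), the LKB1 kinase gene Stk11 (0.11), the microtubule-binding doublecortin gene Dcx (-0.08), the dynein heavy chain gene Dync1h1 (-0.08) and Nde1, a paralog of Ndel1 (-0.15). Their edgeR adjusted p lay between 0.123 and 0.319. At E12.5 the 24 genes included 2 with an unadjusted p under 0.05, Cdkn1b (-0.14) and Pak1 (0.16), both with an edgeR adjusted p of 0.942, where 5.15% of all genes had such an unadjusted p. Without Chd8+/- replicate 2 they were -0.10 and 0.13, with unadjusted edgeR p of 0.0670 and 0.0467. Next came Dync1i2 (0.10), Dync1h1 (-0.12) and Dync1li2 (-0.06).

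Cell type markers were summed per library to stand beside the Reln result at P5. The 9 Cajal-Retzius markers summed to 152 to 172 CPM in Chd8+/+ and 141 to 159 CPM in Chd8+/-, which overlapped, and none of the 9 had an unadjusted p under 0.05. Most of this sum came from Cacna2d2, Calb2 and Ndnf, which averaged 70.7, 37.0 and 33.0 CPM in Chd8+/+. Interneurons also express Calb2 and Ndnf. Trp73 had the highest mean of the remaining markers, 6.62 CPM, so the sum says little about these. Their log2 fold changes ran from -0.18 (Lhx1) to 0.18 (Lhx5). The 11 interneuron markers summed to 721 to 735 CPM in Chd8+/+ and to 629 to 699 CPM in Chd8+/-, which did not overlap. Of these 11, 8 lay below 0 and 3 (Gad1, Gad2 and Dlx1) were lower at an unadjusted p under 0.05, against 9.77% of all genes. edgeR called none and DESeq2 called 1 (5.28% of all genes), Gad1, which encodes a GABA-synthesizing enzyme (log2 fold change -0.24, adjusted p = 0.133 in edgeR and 0.0104 in DESeq2). Gad1, Gad2 and Dlx1 averaged 174, 102 and 97.5 CPM in Chd8+/+ and 146, 83.1 and 89.0 CPM in Chd8+/-. Sst and Npy, neuropeptide genes of interneurons, had log2 fold changes of -0.01 and 0.03. Those of Lhx6 (-0.005), Lamp5 (0.03), Adarb2 (-0.04), Nr2f2 (0.04) and Dlx2 (-0.05) were also small, and that of Sp8 was -0.23. Lists of neighboring tissue were also separated at P5. Striatal markers lay at 181 to 197 against 125 to 163 CPM and choroid plexus markers at 437 to 567 against 319 to 377 CPM. Hippocampal markers lay at 232 to 246 against 187 to 224 CPM. At an unadjusted edgeR p under 0.05, 6 of 7 striatal, 5 of 6 choroid plexus and 4 of 5 hippocampal markers were lower. DESeq2 called 4, 2 and 1 markers of these lists, in that order. Meningeal markers overlapped, at 284 to 316 against 271 to 352 CPM, and 5 of 6 lay above 0. Endothelial markers overlapped too, at 173 to 197 against 161 to 174 CPM, but 4 of 5 were lower at an unadjusted edgeR p under 0.05, and DESeq2 called Kdr (-0.36) and Cdh5 (-0.22). The projection neuron sums overlapped, and DESeq2 called 2 of these 6 markers, Bcl11b (-0.28) and Neurod6 (-0.14). Of the 6 cortical progenitor markers, 3 had an unadjusted edgeR p under 0.05 and separated genotypes, Pax6 (-0.21), Eomes (-0.36) and Hes5 (0.22), where 17.8% of all genes had such a p and 23.4% were separated. edgeR called none of the 6, and DESeq2 called none and gave no adjusted p for Eomes. No marker of these lists was at 0 in either genotype. The part of these differences in the Reln and Cdk5r1 results was not tested. At E12.5, the Cajal-Retzius sum was 271 to 299 CPM in Chd8+/+ and 257, 272 and 386 CPM in Chd8+/-. The highest sum belonged to replicate 2, the library with the lowest Reln level and the highest meningeal sum. The markers of the list were divided over these Chd8+/- libraries. Nhlh2 ran from 54.6 to 104 CPM and Ebf3 from 34.1 to 68.1 CPM, whereas Trp73 ran from 28.8 to 34.4 CPM and Ebf2 from 35.1 to 40.5 CPM.

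**Figure D3:**
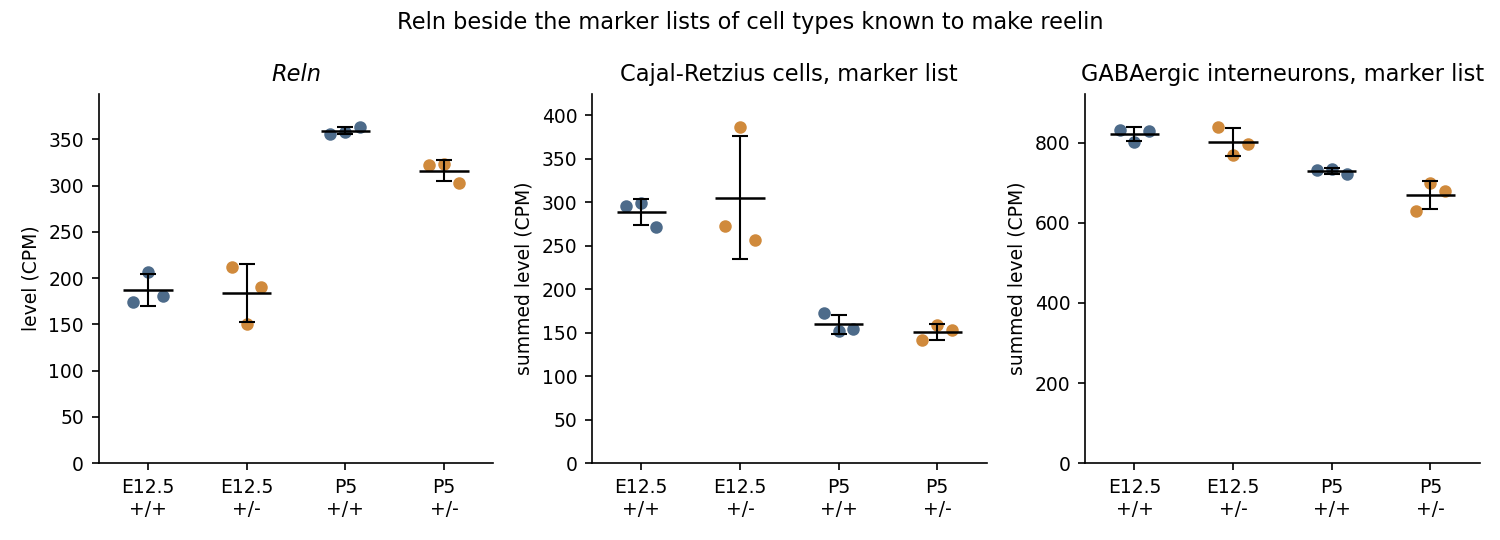
Level of Reln and summed level of 9 Cajal-Retzius and 11 GABAergic interneuron markers (CPM, axes from 0) in every library, with the mean and SD of 3 libraries. Reln is higher at P5 while the Cajal-Retzius sum is lower, and at P5 Reln and the interneuron sum are lower in each Chd8+/- library than in each Chd8+/+ library. Most of the Cajal-Retzius sum at P5 comes from Cacna2d2, Calb2 and Ndnf.

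Between stages, all 9 genes rose from E12.5 to P5 in Chd8+/+ neocortex and again in Chd8+/- neocortex, with edgeR adjusted p of at most 8.69e-05 and 0.00150. Among all genes, 41.7% were called higher at P5 in Chd8+/+ and 41.7% in Chd8+/-. The groups did not overlap for any member in either genotype, and every call remained when any 1 library was left out, with RLE scaling, without the filter and in DESeq2. The stages were counted in separate tables, so stage and table cannot be told apart.

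The ligand and the receptors rose to different degrees. Reln rose from 187 ± 16.9 to 359 ± 3.64 CPM (SD, n = 3) in Chd8+/+, 1.92-fold (95% CI 1.74 to 2.12), and from 184 ± 31.2 to 316 ± 11.5 CPM in Chd8+/-, 1.73-fold (1.45 to 2.07). Vldlr rose 3.41-fold in Chd8+/+, from 40.0 ± 2.82 to 136 ± 1.45 CPM, and 3.23-fold in Chd8+/-. Lrp8 rose less, 1.30-fold in Chd8+/+, from 176 ± 11.4 to 229.7 ± 13.9 CPM, and 1.31-fold in Chd8+/-. Dab1 rose 1.34-fold in both genotypes, in Chd8+/+ from 112 ± 3.76 to 150.2 ± 7.32 CPM.

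Cdk5r2 had the largest rise of the 9 genes, 29.9-fold in Chd8+/+ (95% CI 26.5 to 33.8), from 9.55 ± 1.09 to 285 ± 19.996 CPM, and 27.2-fold in Chd8+/-. Cdk5r1 was already expressed at E12.5 and rose 2.54-fold in Chd8+/+, from 182 ± 13.96 to 462 ± 16.5 CPM, and 2.31-fold in Chd8+/-. Cdk5 rose 2.14-fold in Chd8+/+, from 44.1 ± 2.67 to 94.1 ± 1.73 CPM, and 2.37-fold in Chd8+/-. Pafah1b1 rose 1.68-fold and 1.61-fold, and Ndel1 2.09-fold and 2.13-fold, in Chd8+/+ and Chd8+/-.

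**Figure D4:**
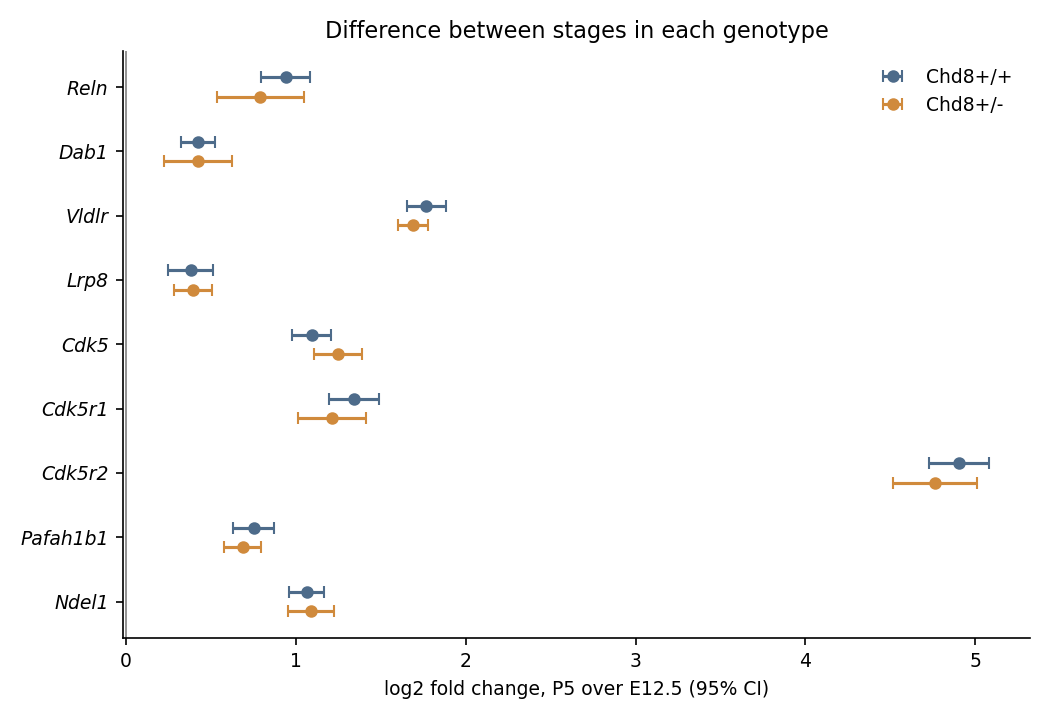
Log2 fold change of each gene, P5 over E12.5, in Chd8+/+ (blue) and Chd8+/- (orange), with the 95% confidence interval of the edgeR model (n = 3 libraries per group). All intervals lie above 0, and the estimates run from 0.38 (Lrp8) to 4.90 (Cdk5r2) in Chd8+/+.

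The rise of Reln went with a fall of most Cajal-Retzius markers. Of all genes, 41.7% rose and 42.3% fell in Chd8+/+, and 41.5% fell in Chd8+/-. Of the 9, 6 fell in both genotypes by edgeR, the transcription factor genes Trp73, Lhx1, Lhx5, Ebf2, Ebf3 and Nhlh2, with log2 fold changes between -2.42 and -4.01 in Chd8+/+. Calb2 and Ndnf, which interneurons also express, rose by 1.36 and 1.66, and Cacna2d2 did not pass (0.13, adjusted p = 0.181). Of the 11 interneuron markers, 5 rose and 5 fell in Chd8+/+, shares near those of all genes. Sst (4.09), Npy (3.85), Lamp5 (2.16), Gad1 (1.77) and Adarb2 (1.29) were the ones that rose, and Dlx1 (-1.29), Dlx2 (-2.62), Nr2f2 (-1.95), Sp8 (-2.14) and Gad2 (-0.20) the ones that fell.

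The relation between paired genes shifted with stage. Per kilobase of exon, the ratio of Cdk5r1 to Cdk5r2 was 12.9 ± 0.492 (SD, n = 3) in Chd8+/+ at E12.5 and 1.09 ± 0.0385 at P5. In Chd8+/- it was 11.5, 8.49 and 13.5 at E12.5, the lowest in replicate 2, and 0.872, 1.00 and 0.929 at P5. At P5 the Chd8+/+ ratios were 1.13, 1.05 and 1.096, all above the Chd8+/- ratios. The ratio of Vldlr to Lrp8 was 0.237 ± 0.00350 in Chd8+/+ and 0.262 ± 0.0114 in Chd8+/- at E12.5, where the libraries did not overlap. At P5 it was 0.622 ± 0.0419 and 0.642 ± 0.0254, which overlapped. The ratios were formed after the values were seen and carry no test.

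**Figure D5:**
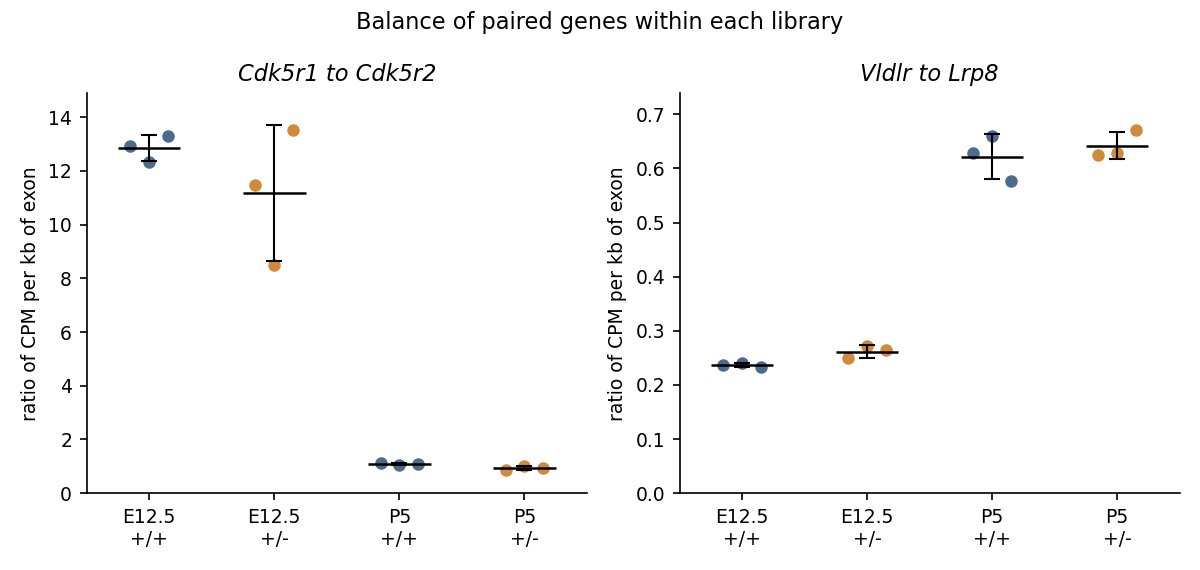
Ratio of Cdk5r1 to Cdk5r2 and of Vldlr to Lrp8 (CPM per kb of exon, axes from 0) in every library, with the mean and SD of 3 libraries. The first ratio is 8.49 to 13.5 at E12.5 and 0.872 to 1.13 at P5, and the second rises from at most 0.271 to at least 0.577.

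Other genes of both pathways were divided between rises and falls, in shares near those of all genes (41.7% higher and 42.3% lower in Chd8+/+). Of the 28 reelin pathway genes, 10 rose and 13 fell in Chd8+/+ by edgeR, and their median was -0.06 on the log2 scale. The most positive were Adamts2 (2.70) and Adamts3 (1.59), encoding secreted proteases that cleave reelin, and Pik3r1 (2.04), the regulatory subunit of PI3-kinase. The most negative were the adaptor gene Crkl (-1.56), Cdh2 (-1.13) and the Src family kinase gene Yes1 (-1.08). Of the 24 Cdk5 and Lis1 genes, 11 rose and 11 fell, with a median of 0.03. Dync1i1, a dynein intermediate chain gene, had a log2 fold change of 6.19, whereas its paralog Dync1i2, picked for this contrast after its value was seen, had 0.13 (edgeR adjusted p = 0.0450). Dclk1 (1.97) and Cables1, encoding a Cdk5-binding protein (1.18), were next. The most negative were Ccnd1, encoding cyclin D1 (-3.51), Nde1 (-3.30) and the microtubule-severing gene Katna1 (-1.70). Nde1 thus fell while its paralog Ndel1 rose by 1.06.

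Likeness of pattern was measured as the root mean square difference of log2 CPM over the 12 libraries after centring each gene on its mean. The closest genes were Kif1bp (0.01) and Fyn (0.03) for Pafah1b1, Btbd10 (0.03) and Btbd3 (0.04) for Ndel1, Tbc1d24 (0.04) and Prkar2b (0.06) for Vldlr, and Cryzl1 and Ppp6r2 (0.05 each) for Lrp8. Fyn encodes the Src family kinase that phosphorylates DAB1. For Dab1 they were Ss18l1 (0.05) and Cacng4 (0.06), for Cdk5r1 Fgf14 and Robo2 (0.05 each), for Cdk5 Tmem74b and Coq10a (0.06 each), for Reln Cnr1 (0.07) and Unc79 (0.08), and for Cdk5r2 Nptxr (0.09) and Gm9954 (0.10). Among the members, Cdk5 and Ndel1 (0.08) and Dab1 and Lrp8 (0.09) were the nearest pairs, whereas Cdk5r2 lay 1.56 from its nearest member, Vldlr. All points share the same libraries, and the difference between stages makes up most of each pattern.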

How the data were processed

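RNA was sequenced from 12 neocortex libraries. The authors trimmed paired-end reads with Trim Galore 0.4.1, aligned them to GRCm38.p4 with Tophat 2.1.0 and counted them on Ensembl genes with FeatureCounts 1.5.0. The deposited values are raw counts per gene and run, without normalization, and another deposited column gives merged exon length. The P5 counting command sets no strand option, and that of E12.5 is not recorded. Each library's 2 runs were summed, since their counts gave a chi-squared to degrees-of-freedom ratio of 1.18 to 1.54 (7.09 to 49.7 between libraries of a group).

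Groups were compared with edgeR 4.0.16 under R 4.3.3 (TMM, filterByExpr, quasi-likelihood test, Benjamini-Hochberg over all genes, threshold 0.05). All 9 members passed the filter in every fit. Alternatives were DESeq2 1.42.0, RLE scaling, no filter, a threshold of 0.1, loess offsets (span 0.5) for exon length or genomic span, all 12 libraries in 1 model, a replicate block and each library left out. DESeq2 without single libraries was added after the data were seen. The sources name no litters, so p-values measure the spread between these libraries.

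The members and lists were chosen with earlier results of these data known. Named were all members, and of the other pathway genes those called by edgeR or DESeq2 and the 5 per list with the smallest p, or the 3 most positive and 3 most negative between stages. Likeness used log2(CPM + 0.1) of genes tested in all 12 libraries with a mean of at least 1 CPM. Scripts were tested on simulated data. Summaries used pandas 2.3.3 on Python 3.11.15, and plots matplotlib 3.10.9.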

Additional observations from a re-analysis of the deposited data

How the results depend on the processing

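The 9 rises between stages passed in both genotypes under every alternative run, and no member was called at E12.5 or for the interaction under any. At P5 the count of members called was 0 in edgeR with RLE scaling, a threshold of 0.1, both offsets, all 12 libraries in 1 model and each library left out. Over all genes, these fits called 136 at the threshold of 0.1, 327 without Chd8+/- replicate 2 and 1 to 5 otherwise. The members called were 1 without the filter on low counts (Reln, adjusted p = 0.0178), where 995 genes were called in all instead of 1, 2 in DESeq2, where 653 were called, and 1 in DESeq2 with genomic span offsets (Cdk5r1), where 178 were called. The DESeq2 count ranged from 0 to 2 when single libraries were left out. Leaving out Chd8+/- replicate 3 or, separately, the first Chd8+/+ library gave 0 (314 and 48 genes in all), leaving out replicate 2 of Chd8+/- gave 2 (891 in all), and each of the remaining libraries gave 1, Reln (122 to 564 in all). The cause was not tested.

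Small log2 fold changes reversed sign under some settings. At P5, exon length offsets gave 0.0409 for Dab1, 0.0571 for Vldlr, 0.00984 for Lrp8 and 0.00698 for Pafah1b1, and span offsets gave 0.11 (0.12 in DESeq2) for Dab1 and 0.0135 (0.0156 in DESeq2) for Vldlr. Leaving out a library gave -0.0344 to 0.0353 for Dab1 and -0.0190 to 0.0120 for Vldlr. At E12.5, span offsets gave 0.00564 for Cdk5r1 and -0.000394 (-0.0025 in DESeq2) for Pafah1b1, which was -0.000675 without the filter. Leaving out a library gave -0.137 to 0.104 for Reln, -0.111 to 0.0783 for Dab1, -0.0969 to 0.000814 for Cdk5, -0.0914 to 0.0848 for Cdk5r1, -0.0117 to 0.0271 for Pafah1b1 and -0.0402 to 0.0439 for Ndel1.

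Deviations of same-numbered libraries of the 2 genotypes correlated at -0.128, -0.0528 and -0.0344 at E12.5 and at 0.184, 0.0693 and 0.0400 at P5. Libraries with different numbers gave -0.0615 to 0.119 at E12.5 and -0.123 to 0.0644 at P5. These values do not settle whether the numbers pair the samples, so a replicate block was run beside the main fits. With the replicate block, 0 of 9 members were called for either genotype effect, as without it. The block fits called 0 genes in all at E12.5 and 4 at P5. They called 9 members in each stage comparison (15970 genes in all in Chd8+/+ and 15639 in Chd8+/-) and 0 for the interaction (0 genes in all).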
